A study of Mus musculus with 12 samples.

Results

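Aminoacyl-tRNA synthetases are the enzymes that join each amino acid to its transfer RNA, the step that fixes what a codon means. In mammals the cytosol and the mitochondria have separate sets, and most mitochondrial enzymes come from a nuclear gene of their own whose symbol ends in 2. Several cytosolic synthetases sit in the multisynthetase complex, held together by the scaffold proteins Aimp1, Aimp2 and Eef1e1. Some cytosolic synthetase genes are also known targets of ATF4, the transcription factor of the amino acid response.

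The genes were taken by symbol: a single capital letter followed by ars or ars2, together with Farsa, Farsb and Eprs. The rule found 37 of the 26218 gene rows, 20 cytosolic and 17 mitochondrial (symbol ending in 2), and all 37 passed the filter on low values. Gars and Kars are counted as cytosolic, although each gene is known to make both the cytosolic and the mitochondrial enzyme. Qars is also cytosolic and has no partner ending in 2, because mitochondrial glutaminyl-tRNA is known to be made by converting glutamyl-tRNA. Eprs makes an enzyme that charges both glutamate and proline.

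Mouse germ cells of 6 groups were sequenced from the 3′ end of their mRNA, with 2 libraries in each group and 12 in all. The 3 culture groups, d4c3, d4c5 and d4c7, are primordial germ cell-like cells (PGCLCs) of strain C57BL/6 with the reporters Blimp1-mVenus and Stella-ECFP (BVSC). They were induced from embryonic stem cells by way of epiblast-like cells, sorted at day 4 of induction by Blimp1-mVenus (BV) fluorescence, expanded on m220 stromal feeder cells for 3, 5 or 7 days and sorted again; the labels give that last sort as BVSC+ and the treatment text as BV fluorescence. The 3 embryonic groups are female and male germ cells of E12.5 and primordial germ cells (PGCs) of E9.5 (E for embryonic day), all from an ICR and C57BL/6 mix in a 1:1 ratio with a Stella-EGFP reporter and sorted by it. Each culture library was amplified from 10 ng of RNA and each embryonic library from 1 ng. Culture and embryo therefore cannot be told apart from strain, reporter, sort and RNA input. The labels do not say whether the libraries of a group came from separate cultures or embryos, so p-values measure the spread between these libraries, which may be technical.

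Values are RPM, reads scaled by the authors to a fixed total of reads in genes. The estimated number of reads in genes was 2219175 to 5817990 per library, and the members had an estimated 9 to 2108 reads each in a library. All 10 germ cell markers were above 0 in every group, and their sum was 2629 to 7660 RPM per library. Sums of 9 blood markers were 4051 to 4585 RPM in the E9.5 libraries and at most 18.97 RPM in every other library, where Alas2 and Gata1 were at 0. Sums of 9 stromal markers were 7.01 to 91.24 RPM in d4c5 libraries, 142.3 to 144.6 RPM in E9.5 libraries and at most 26.54 RPM elsewhere. Gonadal somatic and endoderm markers summed to at most 24.31 and 38.92 RPM, both in E9.5 libraries, and to at most 9.378 and 9.745 RPM elsewhere. Spike-in (ERCC) sums were 59.61 to 72.72 RPM in 5 culture libraries, with none in d4c7 replicate 2, 12110 to 16490 RPM in E12.5 libraries and 628.5 to 1372 RPM in E9.5 libraries.

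Promoters were read from RefSeq (GRCm38.p6, the build called mm10), as the 250 bases before and 50 after a start, for the 27 genes that the table lists, 13 cytosolic and 14 mitochondrial. Searched on both strands, TGATGNAA, the core of the C/EBP-ATF response element that ATF4 is known to bind, stood in 5 of 13 cytosolic promoters (38.5%), Aars, Gars, Iars, Tars and Yars. It stood in 0 of 14 mitochondrial promoters and in 1096 of 27025 promoters of all genes (4.06%). The E-box CACGTG, which MYC proteins are known to bind, stood in 4 of 13 cytosolic promoters (Farsb, Aars, Iars and Tars), in 1 of 14 mitochondrial promoters (Ears2) and in 7.24% of all promoters. The palindromic NRF1 motif was in none of the 27 and in 0.977% of all promoters. The GC box GGGCGG was in 8 of 13 cytosolic, 11 of 14 mitochondrial and 35.9% of all promoters. A match is a description of letters in this window and no evidence of binding.

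The stretches with TGATGNAA are printed 5′ to 3′ on the strand of the gene, with 20 bases on either side of the outermost matches or up to the end of the window, and with matches to TGATGNAA or CACGTG on either strand in capitals; no matches overlap. They are shown because these 5 genes share the motif. The starts used for Aars and Yars lie inside the annotated gene.
Aars, chr8:111033676-111033878, plus strand: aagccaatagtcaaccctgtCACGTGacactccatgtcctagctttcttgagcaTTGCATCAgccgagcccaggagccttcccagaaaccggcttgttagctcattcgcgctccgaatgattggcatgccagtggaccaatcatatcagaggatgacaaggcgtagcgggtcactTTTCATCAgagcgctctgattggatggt
Gars, chr6:55037951-55037998, plus strand: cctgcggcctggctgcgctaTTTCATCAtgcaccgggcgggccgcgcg
Iars, chr13:49682041-49682164, plus strand: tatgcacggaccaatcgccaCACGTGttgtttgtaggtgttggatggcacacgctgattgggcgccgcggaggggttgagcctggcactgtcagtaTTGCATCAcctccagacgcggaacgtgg
Tars, chr15:11399614-11399693, minus strand: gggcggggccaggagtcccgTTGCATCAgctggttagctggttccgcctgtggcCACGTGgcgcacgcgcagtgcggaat
Yars, chr4:129189886-129189933, plus strand: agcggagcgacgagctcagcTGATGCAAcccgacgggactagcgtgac

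The promoters of Farsa and Farsb are shown whole because the genes encode partner subunits, of which Farsa was called between culture and embryo and Farsb was not. The start used for Farsa lies inside the annotated gene. Farsa held none of the motifs searched, and Farsb held a single E-box, in capitals.
Farsa, chr8:84856736-84857035, plus strand: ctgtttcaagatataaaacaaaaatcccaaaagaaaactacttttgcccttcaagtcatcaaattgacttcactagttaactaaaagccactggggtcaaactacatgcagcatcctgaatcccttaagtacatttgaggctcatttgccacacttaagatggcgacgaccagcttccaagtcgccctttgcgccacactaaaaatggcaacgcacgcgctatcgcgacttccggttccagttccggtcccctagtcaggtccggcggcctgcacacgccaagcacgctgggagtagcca
Farsb, chr1:78488848-78489147, minus strand: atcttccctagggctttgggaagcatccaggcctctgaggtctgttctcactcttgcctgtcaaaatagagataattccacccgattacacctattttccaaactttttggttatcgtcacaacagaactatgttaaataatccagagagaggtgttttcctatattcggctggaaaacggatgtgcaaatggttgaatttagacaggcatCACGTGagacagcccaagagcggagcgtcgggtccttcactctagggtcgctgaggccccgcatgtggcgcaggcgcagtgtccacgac

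Of the 37 genes, 24 stayed within a 2-fold range over all 12 libraries, 16 of the 20 cytosolic and 8 of the 17 mitochondrial genes. The share of all genes within such a range was not computed, so whether this is unusual was not tested. The ratio of the highest to the lowest library exceeded 3 for 4 genes, Pars2 (5.36), Yars2 (4.00), Farsa (3.54) and Wars2 (3.32). Pars2 and Wars2 rested on few reads; the lowest library held an estimated 9 reads for Wars2. Where the counting error of a single library was largest, it amounted to an SD of 0.48 on the log2 scale among mitochondrial genes and 0.18 among cytosolic genes, counting error only.

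Summed over the 20 cytosolic genes, the mean was 3116 ± 22.2 RPM in d4c3, 3001 ± 125 in d4c5 and 2903 ± 158 in d4c7 PGCLCs (SD, n = 2 each). In the embryo it was 3037 ± 29.6 RPM in female E12.5, 3549 ± 80.7 in male E12.5 and 3259.7 ± 25.2 in E9.5 cells. Both male E12.5 libraries lay above all the others, at 3492 and 3606 RPM. The sum over the 17 mitochondrial genes was 586 ± 12.0 RPM in d4c3, 618 ± 11.2 in d4c5 and 615 ± 19.8 in d4c7 PGCLCs. It was 582 ± 22.4 RPM in female E12.5, 631 ± 4.48 in male E12.5 and 544 ± 31.6 in E9.5 cells. Mitochondrial genes made up 15.58% to 17.72% of the summed synthetase RPM in culture libraries and 13.87% to 16.35% in embryonic libraries, ranges that overlap. The sums are descriptions and no test was made on them.

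**Figure D1:**
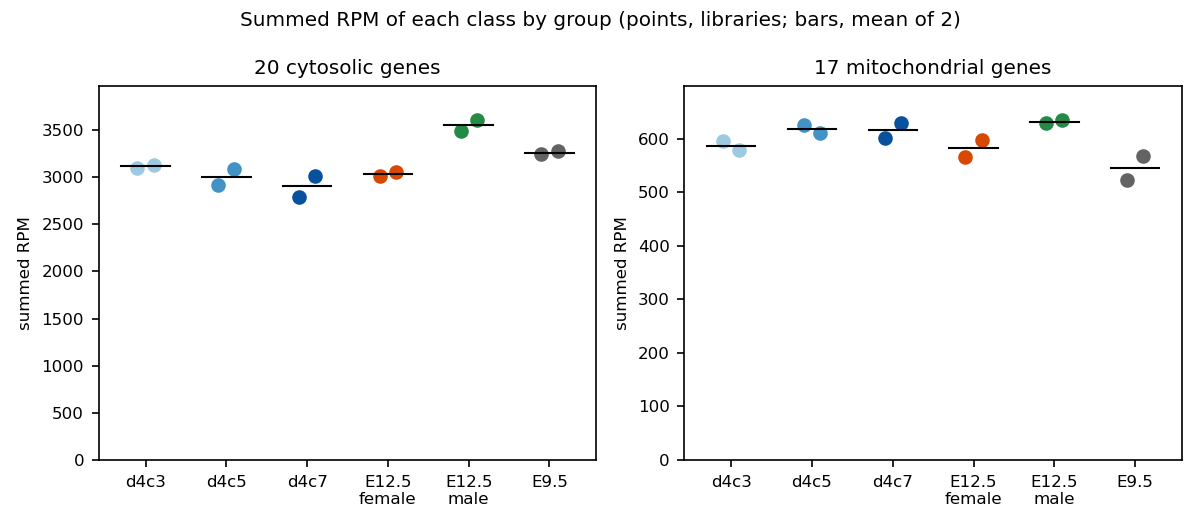
Summed RPM of the 20 cytosolic (left) and 17 mitochondrial (right) synthetase genes by group; points are libraries and bars the mean of 2. Both male E12.5 libraries, at 3492 and 3606 RPM, lie above every other library for the cytosolic sum, while the lowest mitochondrial sum, 522 RPM, is an E9.5 library.

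**Figure D2:**
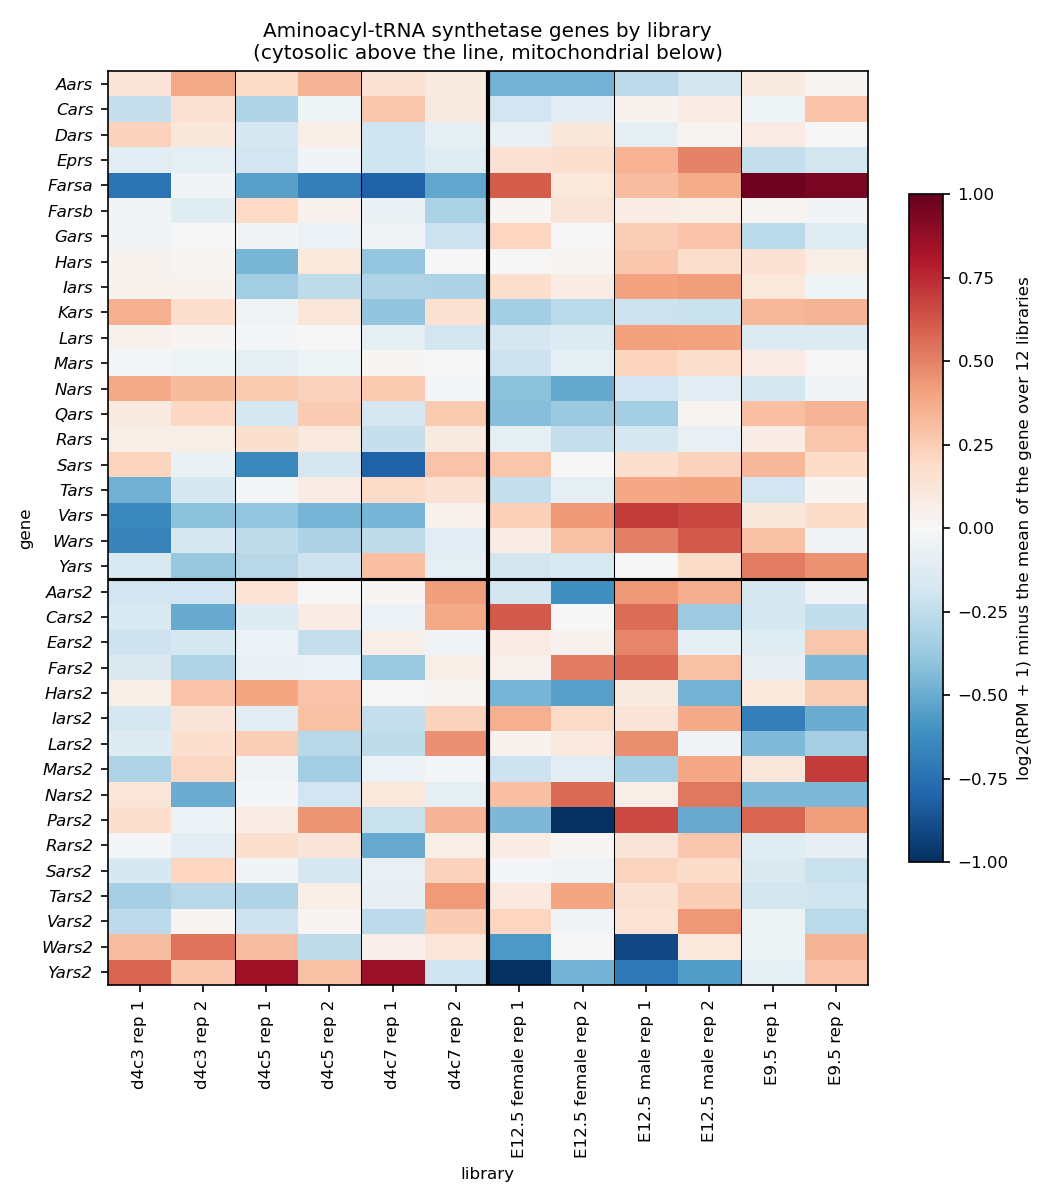
Each cell is log2(RPM + 1) of a gene in a library minus the mean of that gene over the 12 libraries, with colours that saturate at 1 above or below; cytosolic genes are above the black line and mitochondrial genes below it, and 36 of the 37 genes are drawn. Most rows are pale, and Farsa, Vars, Yars2 and Pars2 are among the rows with strong colours. Single cells of Wars2 (male E12.5 replicate 1) and Sars (d4c7 replicate 1) are strongly coloured too.

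Cultured PGCLCs were compared with embryonic germ cells by giving the 3 groups of each side equal weight. Of the 37 genes, 12 were called (limma, adjusted p under 0.05 over 10856 genes), against 54.5% of all genes tested. By direction, 4 were higher in culture (27.7% of all genes were) and 8 were lower (26.8% of all genes were). The share of synthetase genes called, 32.4%, was thus below that of all genes. Their median absolute log2 difference was 0.19, and that of all genes was 0.38. The median log2 difference was -0.09 for cytosolic and -0.09 for mitochondrial genes, with -0.01 for all genes tested. Values are per gene and are not assigned to exons. Fewer cells of a kind and less RNA per cell cannot be told apart in these sorted bulk samples.

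Farsa and Farsb encode the subunits of cytosolic phenylalanyl-tRNA synthetase, α with the catalytic site and β. Farsa, at chr8:84856969-84869257 (mm10), had 27.8 and 46.1 RPM in d4c3, 31.9 and 28.9 in d4c5, 26.3 and 32.4 in d4c7, 72.2 and 50.5 in female E12.5, 58.5 and 61.1 in male E12.5 and 93.0 and 91.8 in E9.5 cells. All 6 culture libraries were below all 6 embryonic libraries, and the E9.5 libraries were the highest (log2 difference -1.11, SE 0.13, adjusted p = 1.01e-05). The difference was -0.90 with E12.5 groups alone on the embryonic side, a fit chosen after the values were seen. Farsb, at chr1:78417958-78488897, ranged over 165 to 237 RPM (median 199.9) in culture and 202 to 226 RPM (median 213) in the embryo (log2 difference -0.09, SE 0.07, adjusted p = 0.236). Culture and embryo overlapped for Farsb. The ratio of the genes was taken up after these values were seen, so its p restates them and is no separate support. The log2 ratio of Farsa to Farsb within a library was -2.62 ± 0.36 in cultured PGCLCs and -1.61 ± 0.41 in embryonic germ cells (SD, n = 6 each), an exact two-sided permutation test over libraries giving p = 0.00433 (adjusted p = 0.0216 over 15 ratios). In Farsb, the 3′ end overlaps exons of Sgpp2 on the other strand, and whether strand was used in counting is not stated. The same holds for Iars2 with Rab3gap2, Fars2 with Nrn1 and Yars with C77080.

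Vars, valyl-tRNA synthetase, at chr17:35000907-35016329, ranged over 171 to 274 RPM (median 198) in culture and 290.4 to 436 RPM (median 339) in the embryo. The highest culture library, d4c7 replicate 2, was still below the lowest embryonic library (log2 difference -0.78, SE 0.08, adjusted p = 3.96e-06). Wars, tryptophanyl-tRNA synthetase, ranged over 36.4 to 53.8 RPM (median 48.7) in culture and 57.3 to 89.7 RPM (median 71.7) in the embryo, again without overlap (log2 difference -0.59, SE 0.10, adjusted p = 0.000325). Iars, isoleucyl-tRNA synthetase, had 99.7 to 131 RPM (median 105) in culture and 124 to 170.1 RPM (median 140.4) in the embryo (log2 difference -0.38, SE 0.06, adjusted p = 0.000217). Its d4c3 libraries lay within the embryonic range, while those of d4c5 and d4c7 lay below it. Sars, seryl-tRNA synthetase, completed the 5 largest falls, with 31.4 to 68.4 RPM (median 51.5) in culture and 55.6 to 70.6 RPM (median 64.5) in the embryo (log2 difference -0.39, SE 0.16, adjusted p = 0.0497). Smaller falls were called for Yars (-0.27) and Eprs (-0.25). Eprs had 242 to 273 RPM in culture, 309 to 393 RPM in the E12.5 libraries and 236 and 246 RPM in the E9.5 libraries. Its culture values were thus below those of E12.5 but not below those of E9.5. With E12.5 groups alone on the embryonic side, a limma fit chosen after the values were seen, Yars and Sars were not called. The log2 difference of Yars was then -0.09 (adjusted p = 0.549), and the adjusted p of Sars was 0.135.

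Yars2, mitochondrial tyrosyl-tRNA synthetase, at chr16:16302965-16309640, showed the largest rise in culture. It had 137 and 109.6 RPM in d4c3, 164 and 111 in d4c5, 166 and 79.1 in d4c7, 41.5 and 65.1 in female E12.5, 55.0 and 61.4 in male E12.5 and 84.6 and 111 in E9.5 cells. The d4c7 libraries differed most from each other, and the lower of them fell below an E9.5 library, so the sides overlapped (log2 difference 0.89, SE 0.17, adjusted p = 0.000628). Aars, alanyl-tRNA synthetase, ranged over 166 to 203 RPM (median 175) in culture and 112 to 166 RPM (median 134) in the embryo (log2 difference 0.42, SE 0.07, adjusted p = 0.000117). The lowest culture library and the highest embryonic library of Aars were almost level, and its 3′ end overlaps Exosc6 on the same strand, so reads of the pair may be shared. Nars, asparaginyl-tRNA synthetase, had 129.6 to 171 RPM (median 157) in culture and 91.5 to 128 RPM (median 115) in the embryo, without overlap (log2 difference 0.48, SE 0.07, adjusted p = 7.42e-05). Hars2, mitochondrial histidyl-tRNA synthetase, was the fourth gene higher in culture, with 18.8 to 24.9 RPM (median 21.3) in culture and 12.6 to 22.4 RPM (median 16.7) in the embryo (log2 difference 0.35, SE 0.14, adjusted p = 0.0446). In all, 5 members had culture and embryonic libraries that did not overlap, 13.5% of the 37 against 15.5% of all genes tested.

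The calls of Farsa, Vars, Wars, Iars, Eprs, Aars, Nars and Yars2 held with every single library left out. The call of Sars held only without d4c5 library 2 and d4c7 library 2 and was lost without any other library (adjusted p up to 0.131). That of Yars held without d4c3 library 1, d4c7 library 1 and male E12.5 library 1 and was lost without any other library (adjusted p up to 0.101). For Hars2 it held without d4c3 library 1 and male E12.5 library 1 and was lost otherwise (up to 0.132).

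**Figure D3:**
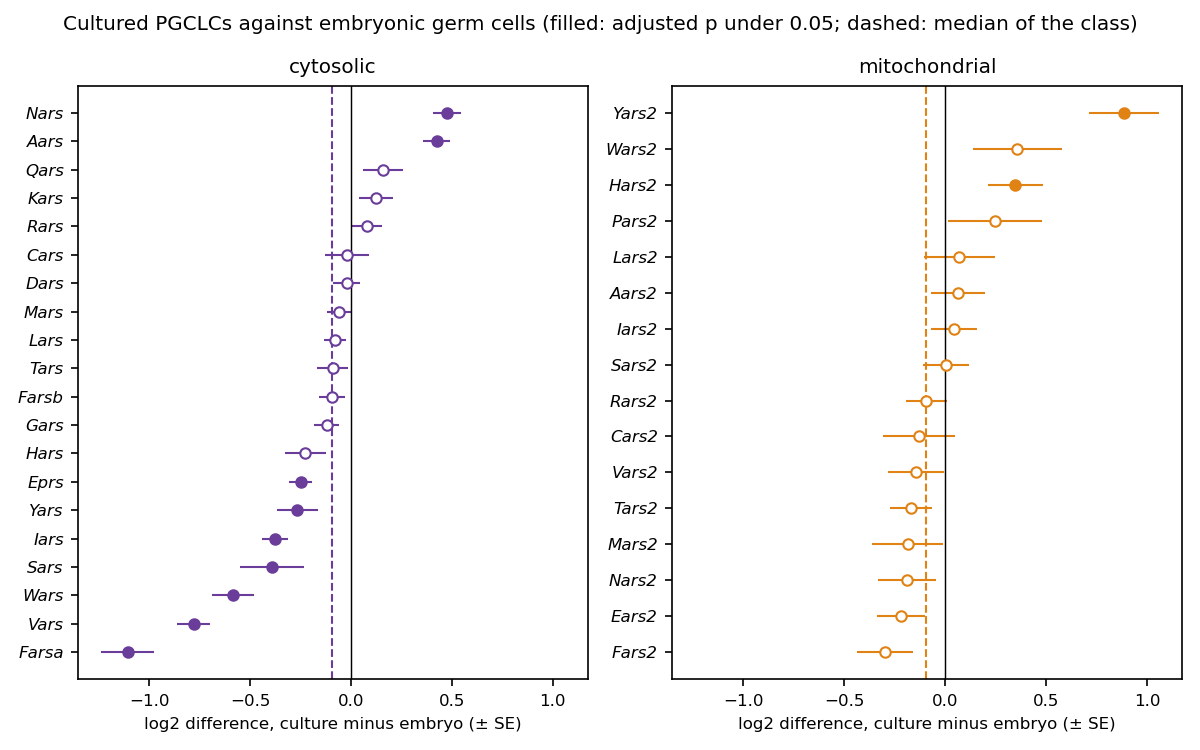
Log2 difference of culture minus embryo for 36 of the 37 synthetase genes, with its SE, cytosolic on the left and mitochondrial on the right; filled points have adjusted p under 0.05 and dashed lines mark the median over all genes of the class, -0.09 in each. Farsa (-1.11) and Yars2 (0.89) lie farthest from 0.

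**Figure D4:**
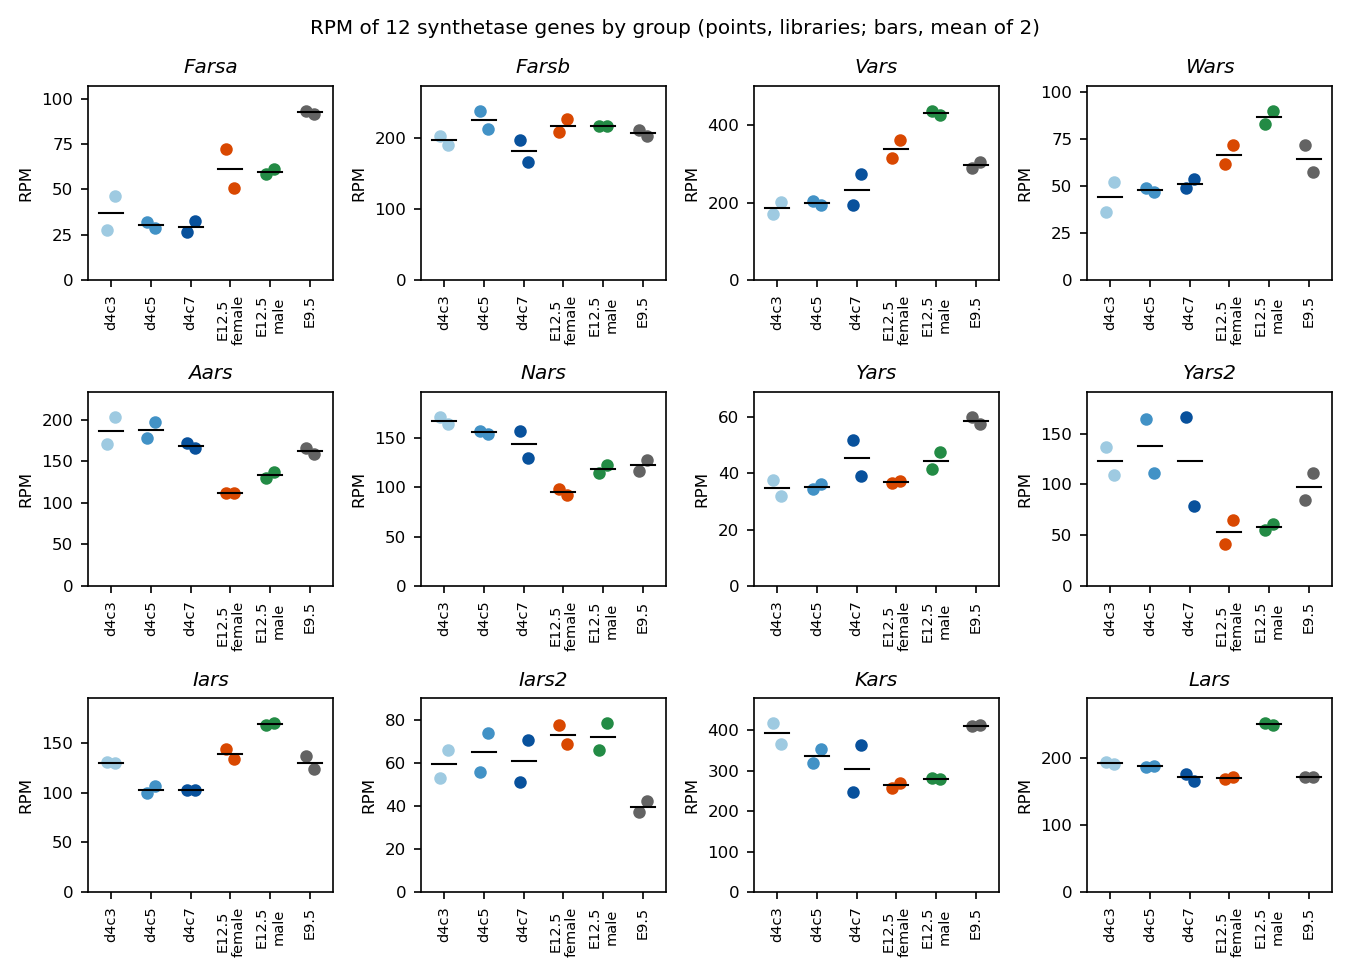
RPM of 12 synthetase genes by group; points are libraries and bars the mean of 2, on axes that start at 0. Farsa, Vars and Wars are lower in all culture libraries than in any embryonic library, Aars and Nars are higher, and Farsb ranges over 165 to 237 RPM.

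Cytosolic and mitochondrial enzymes for the same amino acid were then set side by side. There are 14 amino acids with a gene of each kind, and with Farsa and Farsb this made 15 ratios within a library, compared between the 6 culture and 6 embryonic libraries by an exact two-sided permutation test. The smallest p this allows is 0.00216, and the test treats libraries of different groups on a side as exchangeable. The ratios were chosen after the values of the single genes were seen, so their p-values are no separate support for those. Of the 15 ratios, 6 had an adjusted p under 0.05. Scaling of a library cancels in these ratios, save for the pseudocount.

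Tyrosyl-tRNA synthetase showed the largest change of a ratio. The log2 ratio of Yars to Yars2 was -1.68 ± 0.40 in cultured PGCLCs and -0.52 ± 0.28 in embryonic germ cells (SD, n = 6 each), without overlap (difference -1.15, exact p = 0.00216, adjusted p = 0.0162). Vars to Vars2, also without overlap, had a log2 ratio of 3.24 ± 0.13 in cultured PGCLCs and 3.88 ± 0.21 in embryonic germ cells (SD, n = 6 each), with a difference of -0.64, exact p = 0.00216, adjusted p = 0.0162. In Vars2 alone the log2 difference was -0.14 (adjusted p = 0.397). Lower ratios in culture were also found for Wars to Wars2 (difference -0.94, exact p = 0.00866, adjusted p = 0.026) and Hars to Hars2 (difference -0.58, exact p = 0.00866, adjusted p = 0.026). The call of Wars to Wars2 held without d4c3 library 1, d4c5 library 2, d4c7 library 1, d4c7 library 2, E9.5 library 1 and E9.5 library 2 and was lost without any other library, at an adjusted p of 0.0519. That of Hars to Hars2 held without d4c3 library 1, d4c7 library 2, E9.5 library 1 and E9.5 library 2 and was otherwise lost, also at 0.0519. Ratios with an adjusted p over 0.05 included Nars to Nars2 (difference 0.67, exact p = 0.0368, adjusted p = 0.0789) and Iars to Iars2 (difference -0.42, exact p = 0.052, adjusted p = 0.0974).

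Through the days of culture no synthetase gene was called in the fit without a replicate block. None of the 37 was called in d4c5 against d4c3 (0.0829% of all genes were, and 2 members had an unadjusted p under 0.05) or in d4c7 against d4c5 (0.0184% of all genes, 1 member unadjusted). The same held for d4c7 against d4c3 in limma, where 2.75% of all genes were called and 7 members had an unadjusted p under 0.05. Leaving out either d4c7 library brought calls, but of different members and in opposite directions, higher without library 1 and lower without library 2. Over all 10856 genes tested, limma gave an unadjusted p under 0.05 for 967 in d4c5 against d4c3. It did so for 610 in d4c7 against d4c5 and for 1797 in d4c7 against d4c3. The median log2 difference of d4c7 minus d4c3 was -0.12 for cytosolic and 0.05 for mitochondrial genes, with 0.02 for all genes. Tars, threonyl-tRNA synthetase, came nearest to the threshold. It had 80.6 and 99.8 RPM in d4c3, 112 and 119 in d4c5 and 129 and 125 in d4c7 PGCLCs (log2 difference of d4c7 minus d4c3 0.50, SE 0.13, adjusted p = 0.0629). Both d4c7 libraries were above both d4c3 libraries, as for 2448 of the 10856 genes tested. With the replicate number as a block Tars was called in this contrast; same-numbered libraries deviated together among the culture groups (correlations 0.116, 0.131 and 0.455), but the labels tie the numbers to no shared culture. Replicates of d4c7 spread most among the culture groups: the root mean square difference between its libraries was 0.37 for cytosolic and 0.47 for mitochondrial genes on the log2 scale.

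The least expanded PGCLCs, d4c3, were also set against E9.5 PGCs, the embryonic group before sexual differentiation. Of the 37 genes, 6 were called, 16.2%, against 23.7% of all genes tested. They were higher in d4c3 for 2 genes (13.4% of all genes were) and lower for 4 (10.3% of all genes were). The median log2 difference was -0.08 for cytosolic, 0.04 for mitochondrial and 0.04 for all genes tested. Blood markers summed to 0.3912 to 0.4436 RPM in the d4c3 libraries and to 4051 to 4585 RPM in the E9.5 libraries. Sums of stromal, gonadal somatic and endoderm markers were also higher in the E9.5 libraries. The part of all these markers in the differences was not tested.

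Farsa led the genes that were lower, with 27.8 and 46.1 RPM in d4c3 PGCLCs and 93.0 and 91.8 RPM in E9.5 PGCs (log2 difference -1.34, SE 0.23, adjusted p = 0.000733). Yars, cytosolic tyrosyl-tRNA synthetase, had 37.6 and 31.9 RPM in d4c3 PGCLCs and 59.9 and 57.6 RPM in E9.5 PGCs (log2 difference -0.75, SE 0.18, adjusted p = 0.00736). Vars and Wars were lower too, Vars at 171 and 201 RPM in d4c3 PGCLCs and 290.4 and 304 RPM in E9.5 PGCs (log2 difference -0.68, SE 0.14, adjusted p = 0.00361). For Farsa, Yars and Vars both d4c3 libraries were below both E9.5 libraries, and the same was true of Wars. Its values were 36.4 and 51.9 RPM in d4c3 PGCLCs and 71.7 and 57.3 RPM in E9.5 PGCs (log2 difference -0.55, SE 0.18, adjusted p = 0.0404). Iars2, mitochondrial isoleucyl-tRNA synthetase, had 53.2 and 66.1 RPM in d4c3 PGCLCs and 37.1 and 42.5 RPM in E9.5 PGCs (log2 difference 0.57, SE 0.20, adjusted p = 0.0488). Nars had 171 and 164 RPM in d4c3 PGCLCs and 116 and 128 RPM in E9.5 PGCs (log2 difference 0.45, SE 0.12, adjusted p = 0.0151). These were the only members called higher in d4c3, and for both the d4c3 libraries were above the E9.5 libraries. Libraries were apart in this way, higher or lower in d4c3, for 3949 and 3341 of the 10856 genes tested. Among the 37 members they were apart for 8 and 12. Farsa alone held with any library of the contrast left out. The others lost their call without the library in brackets, named by group and replicate, with adjusted p up to the value given: Yars (d4c3 2 or E9.5 1; up to 0.0689), Vars (d4c3 1; up to 0.0526), Wars (d4c3 1 or E9.5 1 or E9.5 2; up to 0.342), Nars (any library; up to 0.155) and Iars2 (any library; up to 0.273).

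From E9.5 to E12.5 synthetase genes were called in both directions. Both E12.5 sexes were compared with the same E9.5 libraries, so these comparisons are not independent. In female E12.5 cells 14 of 37 genes were called, 37.8%, against 37.5% of all genes tested. Of these, 4 were higher (20.4% of all genes were) and 10 were lower (17.1% of all genes were). In male E12.5 cells 12 were called, 32.4%, against 37.7% of all genes. Here 9 were higher (20% of all genes were) and 3 were lower (17.6% of all genes were). Female minus E9.5 medians were -0.11 for cytosolic, 0.15 for mitochondrial and 0.04 for all genes. Male minus E9.5 medians were 0.02 for cytosolic, 0.31 for mitochondrial and 0.05 for all genes. With each library centred on its median ratio the male cytosolic median was -0.04, so its sign depends on the scaling. Blood markers summed to 13.08 to 18.97 RPM in the E12.5 libraries and to 4051 to 4585 RPM in the E9.5 libraries. Stromal, gonadal somatic and endoderm sums were higher in the E9.5 libraries too, and the part of all these markers was not tested.

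Iars2, at chr1:185286642-185329419, rose in both sexes. It had 77.6 and 68.9 RPM in female E12.5, 66.0 and 78.6 in male E12.5 and 37.1 and 42.5 in E9.5 cells. Every E12.5 library was above both E9.5 libraries (female log2 difference 0.86, SE 0.20, adjusted p = 0.00343; male log2 difference 0.84, SE 0.20, adjusted p = 0.00399). Nars2, mitochondrial asparaginyl-tRNA synthetase, had 28.5 and 34.4 RPM in female E12.5, 24.1 and 33.4 in male E12.5 and 16.5 and 16.5 in E9.5 cells (female log2 difference 0.88, SE 0.25, adjusted p = 0.0131; male log2 difference 0.74, SE 0.25, adjusted p = 0.0302). Eprs, glutamyl-prolyl-tRNA synthetase of the multisynthetase complex, had 309 and 314 RPM in female E12.5, 355 and 393 in male E12.5 and 236 and 246 in E9.5 cells (female log2 difference 0.37, SE 0.10, adjusted p = 0.0106; male log2 difference 0.63, SE 0.10, adjusted p = 0.00026). Gars, the gene behind both cytosolic and mitochondrial glycyl-tRNA synthetase, had 368 and 318 RPM in female E12.5, 377 and 387 in male E12.5 and 262 and 291 in E9.5 cells (female log2 difference 0.31, SE 0.11, adjusted p = 0.0353; male log2 difference 0.47, SE 0.11, adjusted p = 0.00372). For Nars2, Eprs and Gars as well, no E12.5 library reached down to the E9.5 values. Among the 10856 genes tested, 4364 had both female libraries above both E9.5 libraries, and 4392 had both male libraries above them.

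Kars, the lysyl gene that serves both compartments, at chr8:111993439-112011354, fell in both sexes. It had 258 and 271 RPM in female E12.5, 282 and 279 in male E12.5 and 412 and 412 in E9.5 cells (female log2 difference -0.64, SE 0.14, adjusted p = 0.00343; male log2 difference -0.55, SE 0.14, adjusted p = 0.0082). Kars and Gars, which share this double role, thus moved in opposite directions. Qars, glutaminyl-tRNA synthetase, had 92.8 and 96.3 RPM in female E12.5, 98.2 and 127 in male E12.5 and 154 and 158 in E9.5 cells (female log2 difference -0.72, SE 0.17, adjusted p = 0.005; male log2 difference -0.48, SE 0.17, adjusted p = 0.04). Farsa was lower in female (log2 difference -0.60, adjusted p = 0.049) and male E12.5 cells (-0.62, adjusted p = 0.044) than in E9.5 cells.

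The remaining calls were made in the contrast of a single sex with E9.5, which does not show that the sexes differ. In females Pars2, mitochondrial prolyl-tRNA synthetase, had 7.58 and 3.27 RPM, against 16.5 and 14.6 RPM at E9.5 (log2 difference -1.45, SE 0.41, adjusted p = 0.0125). Yars2 had 41.5 and 65.1 RPM in female E12.5 and 84.6 and 111 RPM in E9.5 cells (log2 difference -0.88, SE 0.30, adjusted p = 0.0311). Hars2 had 13.3 and 12.6 RPM in female E12.5 and 20.2 and 22.4 RPM in E9.5 cells (log2 difference -0.68, SE 0.24, adjusted p = 0.038). All of these are mitochondrial, and their libraries were apart. Both female libraries were below both E9.5 libraries for 3771 of the 10856 genes tested. Yars had 36.7 and 37.5 RPM in female E12.5 and 59.9 and 57.6 RPM in E9.5 cells (log2 difference -0.65, SE 0.18, adjusted p = 0.0107). Smaller falls in females were called for Aars (-0.53), Nars (-0.35) and Rars (-0.34), the last being arginyl-tRNA synthetase. In males Fars2, mitochondrial phenylalanyl-tRNA synthetase, had 34.1 and 28.0 RPM, against 21.3 and 16.3 RPM at E9.5 (log2 difference 0.70, SE 0.24, adjusted p = 0.0362). Lars, leucyl-tRNA synthetase, had 252 and 250.2 RPM in male E12.5 and 172 and 172 RPM in E9.5 cells (log2 difference 0.54, SE 0.10, adjusted p = 0.000646). The female libraries of Lars, at 168 and 172 RPM, were close to the E9.5 values. Rises in males were also called for Vars (0.54), Tars (0.48) and Iars (0.38).

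Among the 8 synthetases of the multisynthetase complex (Dars, Eprs, Iars, Kars, Lars, Mars, Qars and Rars, a textbook grouping added after the values were seen), females had 1 called higher (20.4% of all genes were) and 3 lower (17.1% of all genes were) against E9.5. Males had 3 called higher (20% of all genes were) and 2 lower (17.6% of all genes were). Counts this small do not set the complex apart from all genes.

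Only some of these calls held with each library left out: Eprs and Lars in males, and Iars2, Aars, Kars and Qars in females. The others lost their call without a library of the contrast, given in brackets with the highest adjusted p. In males these were Farsa (any library; up to 0.16), Kars (male 2 or E9.5 2; up to 0.0525), Qars (male 1 or E9.5 1 or E9.5 2; up to 0.309), Iars (male 1 or male 2 or E9.5 2; up to 0.155), Gars (E9.5 1; up to 0.058), Tars (male 1 or male 2 or E9.5 1; up to 0.129), Vars (male 1 or male 2 or E9.5 1; up to 0.0699), Fars2 (any library; up to 0.24), Nars2 (male 2 or E9.5 1 or E9.5 2; up to 0.231) and Iars2 (male 2; up to 0.0511). In females they were Pars2 (female 2 or E9.5 1 or E9.5 2; up to 0.149), Yars2 (female 1 or E9.5 1 or E9.5 2; up to 0.264), Hars2 (any library; up to 0.179), Yars (female 1 or E9.5 1 or E9.5 2; up to 0.0736), Farsa (female 2 or E9.5 1 or E9.5 2; up to 0.36), Nars (any library; up to 0.226), Rars (any library; up to 0.313), Gars (female 1 or E9.5 1 or E9.5 2; up to 0.267), Eprs (female 2 or E9.5 1 or E9.5 2; up to 0.0872) and Nars2 (female 2 or E9.5 1 or E9.5 2; up to 0.101).

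**Figure D5:**
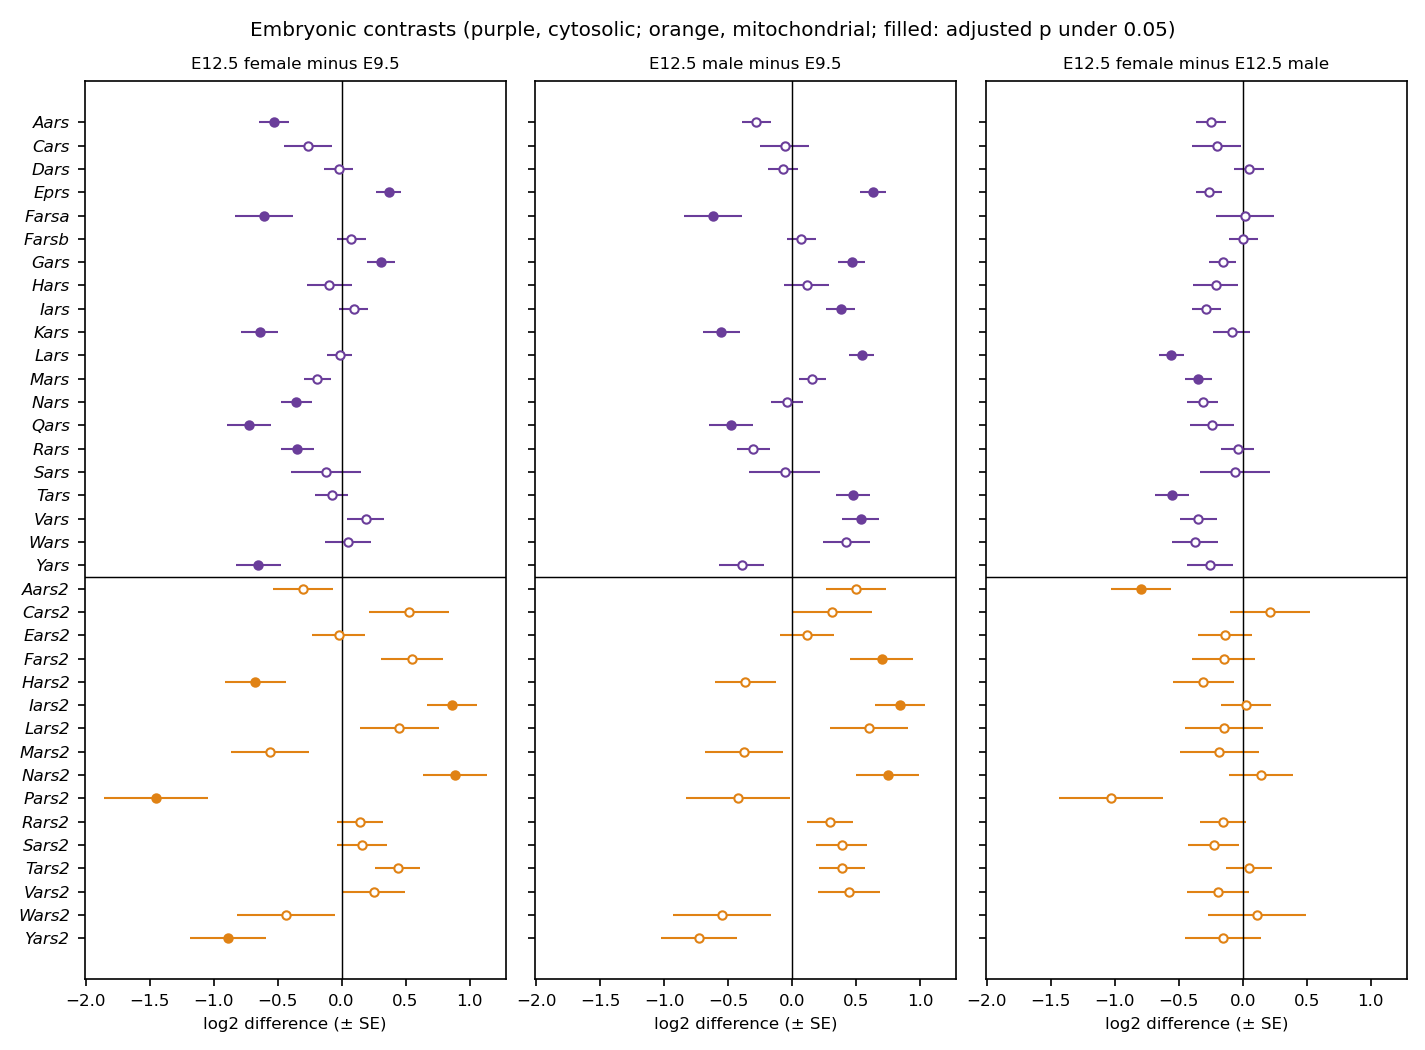
Log2 difference and SE of 36 of the 37 synthetase genes for female E12.5 minus E9.5, male E12.5 minus E9.5 and female minus male E12.5, with cytosolic genes in purple and mitochondrial genes in orange; filled points have adjusted p under 0.05. In the third panel 28 of 36 points lie below 0, and the 4 filled points are Lars, Tars, Mars and Aars2.

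At E12.5 most synthetase genes had lower values in female than in male germ cells, although few passed the test. Of the 37 genes 29 had a negative log2 difference of female minus male, among them 17 of the 20 cytosolic genes. All 4 called genes were lower in females, 10.8% of the 37, against 11.9% of all genes called in either direction and 5.27% called lower. The median log2 difference of female minus male was -0.24 for cytosolic and -0.15 for mitochondrial genes, while over all genes tested it was -0.002 (5446 negative and 5378 positive). Both female libraries were below both male libraries for 15 of 20 cytosolic and 3 of 17 mitochondrial genes, and for none were they above; among all genes 29.6% were lower in this sense and 29.6% were higher. Male E12.5 libraries agreed closely with each other for cytosolic genes, with a root mean square difference of 0.12 on the log2 scale, and less closely for mitochondrial genes (0.55).

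Lars had the smallest adjusted p of the members, with 168 and 172 RPM in female and 252 and 250.2 RPM in male E12.5 cells (log2 difference -0.56, SE 0.10, adjusted p = 0.00215). Its call held with any library of the contrast left out. Tars had 95.8 and 106 RPM in female and 148 and 149 RPM in male E12.5 cells (log2 difference -0.56, SE 0.13, adjusted p = 0.0142). Mars, methionyl-tRNA synthetase of the multisynthetase complex, had 136 and 147 RPM in female and 183 and 176 RPM in male E12.5 cells (log2 difference -0.35, SE 0.10, adjusted p = 0.0435). The 3′ end of Mars overlaps exons of Ddit3 on the other strand. Aars2, mitochondrial alanyl-tRNA synthetase, had 17.0 and 12.3 RPM in female and 26.6 and 25.3 RPM in male E12.5 cells (log2 difference -0.80, SE 0.23, adjusted p = 0.0401). In each of the 4 genes the sexes were apart. Leaving out any library of either sex ended the calls of Tars, Mars and Aars2. Centring each library on its median ratio also ended that of Mars, and using no filter on low values ended that of Aars2. Blood, stromal, gonadal somatic and endoderm markers summed to at most 18.97, 5.366, 9.378 and 9.745 RPM in the E12.5 libraries.

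In culture against embryo, log2 differences of the 5 genes with TGATGNAA in the promoter were 0.42 for Aars, -0.12 for Gars, -0.38 for Iars, -0.09 for Tars and -0.27 for Yars. Aars was called higher and Iars and Yars lower, in a contrast where 54.5% of all genes were called. The call of Yars was lost with E12.5 groups alone on the embryonic side. Calls of so few genes do not set those with the motif apart from all genes. In female minus male E12.5 cells all 5 values were negative (-0.25, -0.16, -0.28, -0.56 and -0.26), as were those of 24 of the other 32 members, and only Tars was called.

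Genes that work beside the synthetases were counted in lists, to be read against the 27.7% of all genes called higher and the 26.8% called lower in culture against embryo. Of the list of scaffold proteins and synthetase-related genes, 9 of 10 had a row and were tested, and culture against embryo called 3 higher and 2 lower (median 0.00), near the share of all genes. Aimp1, a scaffold of the multisynthetase complex, had 54.1 and 53.7 RPM in d4c3, 55.0 and 55.6 in d4c5 and 64.2 and 56.1 in d4c7 PGCLCs. The embryonic values were lower, 36.6 and 33.9 RPM in female E12.5, 38.6 and 33.8 in male E12.5 and 35.5 and 38.2 in E9.5 cells (log2 difference 0.63, SE 0.09, adjusted p = 5.34e-05). Dtd1, which removes D-amino acids from tRNA, was higher in culture, with a mean of 52.6 RPM there and 20.8 RPM in the embryo (adjusted p = 2.67e-06). Aarsd1, which removes wrongly attached amino acids from tRNA, was lower (log2 difference -1.05, SE 0.21, adjusted p = 0.000716). Tarsl2, a cytosolic threonyl-tRNA synthetase with a gene of its own outside the naming rule, had 18.8 and 17.1 RPM in female E12.5, 5.94 and 10.8 in male E12.5 and 2.57 and 3.54 in E9.5 cells. It was higher than at E9.5 in females (log2 difference 2.23, SE 0.36, adjusted p = 0.00034) and in males (log2 difference 1.17, SE 0.36, adjusted p = 0.0204).

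Among 3 tested mitochondrial aminoacylation partners, Qrsl1, a subunit of the enzyme that makes mitochondrial glutaminyl-tRNA, was higher in culture (0.30) and Mtfmt, the formyltransferase of the initiator tRNA, lower (-0.30). The list of cytosolic elongation factors had 6 genes, all tested, among them Eef1e1, the scaffold that the list above also counted. In culture 3 of the 6 were lower (26.8% of all genes were) and none higher, led by Eef2 (log2 difference -0.76, SE 0.09, adjusted p = 9.76e-06). Of 9 mitochondrial translation factors 1 was higher in culture, Gfm1 (0.43), and 3 were lower, while 54.5% of all genes were called in either direction. Tufm and Tsfm, the elongation factors that bring charged tRNA to the mitochondrial ribosome and recycle that carrier, were lower by the largest amounts (Tufm log2 difference -0.96, SE 0.18, adjusted p = 0.000422; Tsfm log2 difference -0.66, SE 0.11, adjusted p = 0.000239).

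The list of Atf4 and its amino acid response genes had 20 entries, of which 15 were tested. Culture against embryo called 2 higher, Slc3a2 (0.66) and Asns (0.49), and 3 lower, among them Slc7a11 (-1.56) and Trib3 (-0.80), with a median of 0.03, against 54.5% of all genes called in either direction. Female against male E12.5 cells called 2 higher and 2 lower, with a median of -0.05, where 11.9% of all genes were called. Asns, which makes asparagine, had 289.5 and 306 RPM in female and 126 and 124 RPM in male E12.5 cells (log2 difference 1.25, SE 0.10, adjusted p = 5.48e-06). Shmt2, the mitochondrial serine hydroxymethyltransferase, went the other way, with 29.1 and 28.9 RPM in female and 68.1 and 64.4 RPM in male E12.5 cells (log2 difference -1.16, SE 0.26, adjusted p = 0.0102). Myc and Mycn were tested, and Myc was called lower than at E9.5 in d4c3 PGCLCs (-1.28), female E12.5 (-1.76) and male E12.5 cells (-1.14). Its values were low, 2.66 to 4.07 RPM in culture and 1.26 to 9.56 RPM in the embryo. Mycn had 107 to 174 RPM in culture and 151 to 163 RPM in the embryo. It was not called in these 3 contrasts (0.06, -0.03 and 0.02 in the same order).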

How the data were processed

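The deposited values are RPM, reads scaled by the authors to the reads assigned to genes, in a table of 26218 genes for 12 libraries. Per the submitters' processing notes, cutadapt 1.3, TopHat 1.4.1, Cufflinks 2.2.0 and build mm10 were used; the role of each is not given in the sources used here. Per the labels' protocols, RNA was column-extracted and its cDNA amplified before 3′ sequencing on a SOLiD instrument; no molecular identifiers are mentioned, so floors and counting errors cover counting only.

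Low values were multiples of a smallest step within 0.1 read for 81.8% to 87.4% of values, so whole reads were not recovered and count tests not used; steps gave estimated depths and a floor of 3 reads (0.517 to 1.36 RPM). Values were analysed as log2(RPM + 1) for the 10856 genes with RPM of at least 5 in at least 2 libraries (15362 left out). A log2 difference is on that scale and understates changes of low genes. limma 3.58.1 in R 4.3.3 fitted a mean per group over 12 libraries (eBayes with trend; 6 residual and 8.02 prior degrees of freedom). In each of 8 contrasts p-values received a Benjamini-Hochberg adjustment over all genes tested and genes were called at adjusted p under 0.05. The fit was also run on simulated data with independent noise in each library. Recovery was required only for differences larger than any called for a member, so this run does not vouch for smaller ones.

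Members, lists and tests were chosen with earlier results of these data known. The within-library ratios and their exact permutation test (SciPy 1.17.1) were added after the values were seen. Per contrast, up to 5 called members with the largest rise and 5 with the largest fall were to be given by library, other called members by log2 difference. Dtd2, Gatb and Mycl had no row under that name. A member is not reported by name here. Group values are means ± SD of 2 libraries. Positions and promoters come from RefSeq GRCm38.p6. Alternatives were pseudocount 5, no filter, median centring, a replicate block, fits on the compared groups alone, E12.5 groups alone on the embryonic side and leaving out each library.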

Additional observations from a re-analysis of the deposited data

Results flagged for a closer look

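The sexes differed at E12.5 for 4 synthetase genes by the test of the difference itself (limma, female minus male): Lars by -0.56 (adjusted p = 0.00215), Tars by -0.56 (adjusted p = 0.0142), Mars by -0.35 (adjusted p = 0.0435) and Aars2 by -0.80 (adjusted p = 0.0401) on the log2 scale. In each, both female libraries were below both male libraries. Lars stayed called with any library of the contrast left out, and Tars, Mars and Aars2 did not.

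Spike-in RNAs, which no comparison of the synthetase genes used, summed to 59.61 to 72.72 RPM in 5 culture libraries, at least 12110 RPM in the E12.5 libraries and 628.5 to 1372 RPM in E9.5 libraries. No explanation of these values was tested.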

How the results depend on the processing

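Across all alternatives, 16 of the 48 calls of named members held and 0 reversed; 32 were lost in at least 1, each of them with some library left out, where the lone library of its group is assumed to vary like the other groups. Leaving out each library in turn gave 0 for d4c5 against d4c3 and for d4c7 against d4c5, 0 to 2 called members for d4c7 against d4c3 (0 with all libraries; 2 without either d4c7 library), 2 to 3 for d4c3 against E9.5 (6), 4 to 6 for male E12.5 against E9.5 (12), 4 to 8 for female E12.5 against E9.5 (14), 1 for female against male E12.5 (4) and 8 to 13 for culture against embryo (12). In the contrasts with E9.5 and between the sexes, calls over all genes tested fell as well, whichever library of the contrast was left out. The loss of calls there was thus not limited to the synthetase genes. Fitting the compared groups alone called 7 members in female against male E12.5, where 2137 of the 9820 genes tested were called. With E12.5 groups alone on the embryonic side, 16 members were called in culture against embryo, where 5885 of the 10485 genes tested were called. Of the 12 main calls 10 were kept there, and those of Sars and Yars were lost. Other counts moved by at most 1.5 times under pseudocount 5, no filter, median centring and fits on the compared groups. With no filter, counts against E9.5 were 4 (d4c3), 8 (male) and 10 (female). Over the 19998 genes tested without a filter, 2919, 4531 and 4323 were called in the same order. A fit on the compared groups gave 18 (male), where 5247 of the 10093 genes tested were called. Of 160 class medians recomputed, 31 moved by more than the replicate spread.

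Replicate numbers name no shared day or animal. Over 15 pairs of groups the correlation of same-numbered deviations was -0.043 to 0.455, and above 0.1 in 3, those between culture groups (0.116, 0.131 and 0.455), so the numbers were not taken as a pairing over the design. With a replicate block, 1 member (Tars) was called in d4c7 against d4c3 and 15 in female E12.5 against E9.5. Over the 10856 genes tested, 358 and 4230 were called in the same order.

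For the within-library ratios, 77 of 102 recomputed values stayed on their side of the threshold, 23 lost a call, 2 gained one and 0 reversed; Nars to Nars2 and Rars to Rars2 passed with E12.5 groups alone as embryo (1.00 and 0.35). Depth limits the mitochondrial genes most: Wars2 had an estimated 9 reads in its lowest library.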
